A study of Mus musculus with 10 samples.

Results

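The sites described here are peaks of lysine-specific demethylase 1 (LSD1) in fed mouse skeletal muscle that lay away from promoters and had no peak of the glucocorticoid receptor (GR) over them. They were chosen from the 16616 peaks of the LSD1 fed list by 2 criteria. The midpoint lay outside every promoter, taken as 1000 bp upstream to 100 bp downstream of a RefSeq transcription start site (TSS). No base was shared with a peak of the GR fed list or of the GR starved list. Of 11065 distal LSD1 fed peaks, 4404 met both criteria and are called GR-negative distal sites below. The name means that no peak was called, not that GR was shown to be absent. Among all LSD1 fed peaks, 36.5% had no GR peak in either condition, or 6072 peaks, of which the other 1668 lay in promoters.

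The sites come from chromatin immunoprecipitation sequencing (ChIP-seq) of limb muscle from C57BL/6J mice, whose age the labels give as 10 weeks. Mice were fed or starved for 24 h, and no genetic or drug treatment is named for these samples. GR, LSD1, histone H3 mono- or dimethylated at lysine 9 (H3K9me1 and H3K9me2) and input were each sequenced as 1 library per condition, 10 libraries in all. Whole muscle holds other cell types besides myofibres, and fewer bound cells and less binding per cell cannot be told apart. With 1 library per group there was no replicate check and no test between conditions. Intervals are exact (Clopper-Pearson) 95% binomial confidence intervals (CI), which cover counting error only, since neighbouring peaks share a library. Library depth is unknown here. The GR libraries carried another library code in the labels than the LSD1 libraries. The fed and starved libraries of each histone mark also differed in code, so that code and condition cannot be told apart for the marks.

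LSD1, encoded by Kdm1a, is a flavin-dependent enzyme that removes mono- and dimethyl groups from lysines of histone H3. It acts on lysine 4 in corepressor complexes with CoREST, and removal at lysine 9 has been described together with nuclear receptors. LSD1 is brought to DNA largely by partner proteins, among them REST and SNAIL family repressors. GR, a nuclear receptor activated by glucocorticoids, binds palindromic glucocorticoid response elements (GREs). In muscle, enhancers are known to be bound by MyoD-type factors at E-boxes, by MEF2 factors and by homeodomain factors at MEF3 sites.

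Sequences of a few sites show what kinds of DNA they held. All are given 5′ to 3′ on the plus strand of GRCm38 (mm10), from the RefSeq assembly. Capitals mark the motif named. The first 3 are the MEF2-bearing sites with the highest LSD1 fold enrichment over input, with less than 50% of their bases in soft-masked repeats. The Pdgfc site, chr3:81039303-81039553, lay in an intron. The Zfp715 site, chr7:43305410-43305623, was also intronic. The Nagpa site, chr16:5186400-5186663, was intergenic. The sites are named after the gene of the nearest TSS.
Pdgfc, MEF2: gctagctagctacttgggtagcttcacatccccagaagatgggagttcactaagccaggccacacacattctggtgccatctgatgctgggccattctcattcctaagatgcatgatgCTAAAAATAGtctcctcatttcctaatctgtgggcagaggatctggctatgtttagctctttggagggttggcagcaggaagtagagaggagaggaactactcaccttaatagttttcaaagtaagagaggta
Zfp715, MEF2: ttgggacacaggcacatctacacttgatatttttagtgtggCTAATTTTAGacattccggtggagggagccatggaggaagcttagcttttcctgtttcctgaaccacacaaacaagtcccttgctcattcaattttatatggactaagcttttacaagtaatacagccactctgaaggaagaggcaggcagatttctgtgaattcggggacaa
Nagpa, MEF2: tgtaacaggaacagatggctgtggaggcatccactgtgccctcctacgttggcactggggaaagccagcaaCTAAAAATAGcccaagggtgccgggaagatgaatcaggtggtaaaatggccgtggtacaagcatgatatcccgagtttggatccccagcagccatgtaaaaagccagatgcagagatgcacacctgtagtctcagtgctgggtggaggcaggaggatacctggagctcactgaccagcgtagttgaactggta

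The next 2 carried the MEF3 motif TCAGGTTNC at the highest fold enrichment. The Vgll4 site, chr6:114805032-114805302, lay in an intron of Atg7. The Hmga2-ps1 site, chr1:177008848-177009131, lay in an intron of Sdccag8 and held the motif on the minus strand. The third MEF3 site of that order, at Ddx18, held its motif beside the peak and is not shown.
Vgll4, MEF3: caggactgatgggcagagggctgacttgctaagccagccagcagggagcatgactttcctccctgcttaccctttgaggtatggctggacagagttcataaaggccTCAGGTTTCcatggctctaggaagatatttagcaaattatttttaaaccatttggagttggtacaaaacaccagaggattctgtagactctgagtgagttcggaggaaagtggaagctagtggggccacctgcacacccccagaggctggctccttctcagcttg
Hmga2-ps1, MEF3: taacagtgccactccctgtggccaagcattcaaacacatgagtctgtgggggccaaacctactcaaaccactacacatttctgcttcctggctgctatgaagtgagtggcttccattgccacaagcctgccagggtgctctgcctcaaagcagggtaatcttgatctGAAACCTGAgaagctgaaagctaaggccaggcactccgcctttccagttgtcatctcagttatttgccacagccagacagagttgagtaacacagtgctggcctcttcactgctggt

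An E-box site and a CTCF site are shown because the shares of these motifs differed from those of the flanks or of sites with GR. They were chosen after the values were seen, as the highest-fold sites of at most 300 bp with the motif inside the peak, outside exons and over 1 kb from a TSS. The E-box site, chr1:167016345-167016558, lay in an intron with Fam78b as the nearest gene. The CTCF site, chr12:86132924-86132981, lay in an intron with Gm805 as the nearest gene.
Fam78b, E-box CAGCTG: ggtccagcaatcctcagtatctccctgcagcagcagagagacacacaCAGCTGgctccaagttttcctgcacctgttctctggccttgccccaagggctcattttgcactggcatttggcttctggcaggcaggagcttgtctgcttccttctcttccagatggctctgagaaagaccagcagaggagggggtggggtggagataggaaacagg
Gm805, CTCF: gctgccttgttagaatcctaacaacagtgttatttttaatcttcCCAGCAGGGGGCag

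Repeats led the ranking by fold enrichment. The site with the highest fold of all, chr9:19575433-19575511, was a run of the pentamer GGAAT in intergenic sequence 8.09 kb upstream of Olfr854. The strongest site with few soft-masked bases lay in an intron of Ubr3, with Myo3b as the nearest TSS. Its central 200 bp, chr2:69994276-69994475, repeated itself with a period of 39 bp at 95.7% identity.
Olfr854, pentamer run: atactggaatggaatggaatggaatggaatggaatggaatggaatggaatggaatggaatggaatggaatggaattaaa
Ubr3 intron, 39-bp repeat: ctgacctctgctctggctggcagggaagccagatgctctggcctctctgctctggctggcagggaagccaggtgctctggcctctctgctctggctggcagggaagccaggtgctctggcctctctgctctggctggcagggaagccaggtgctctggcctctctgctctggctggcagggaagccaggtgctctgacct

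Introns held most of the sites, and a group of them sat just downstream of start sites. Midpoints of 2386 sites, 54.2% (95% CI 52.7 to 55.7), were intronic, 1513 (34.4%) were intergenic and 505 (11.5%) were exonic. At distal LSD1 peaks with a GR fed peak the shares were similar, with 52.2%, 38.0% and 9.75%. Those with a GR starved peak only had 48.8%, 34.6% and 16.6%. Of the exonic midpoints of GR-negative sites, 234 lay in coding sequence, 177 in 5′ untranslated exons, 64 in 3′ untranslated exons and 30 in noncoding transcripts. The median distance of GR-negative sites to the nearest TSS was 15.0 kb. It was 17.5 kb for the 4850 distal LSD1 peaks with a GR fed peak and 9.44 kb for the 1811 with a GR starved peak only. All 641 sites within 1 kb of a TSS lay downstream of it, as the promoter definition requires. They made up 14.6% (13.5 to 15.6) of GR-negative sites, against 10.8% and 22.5% in the other 2 groups. A further 490 sites (11.1%) lay more than 100 kb from any TSS. Adding predicted RefSeq transcripts would place 255 sites (5.79%) in a promoter.

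**Figure D1:**
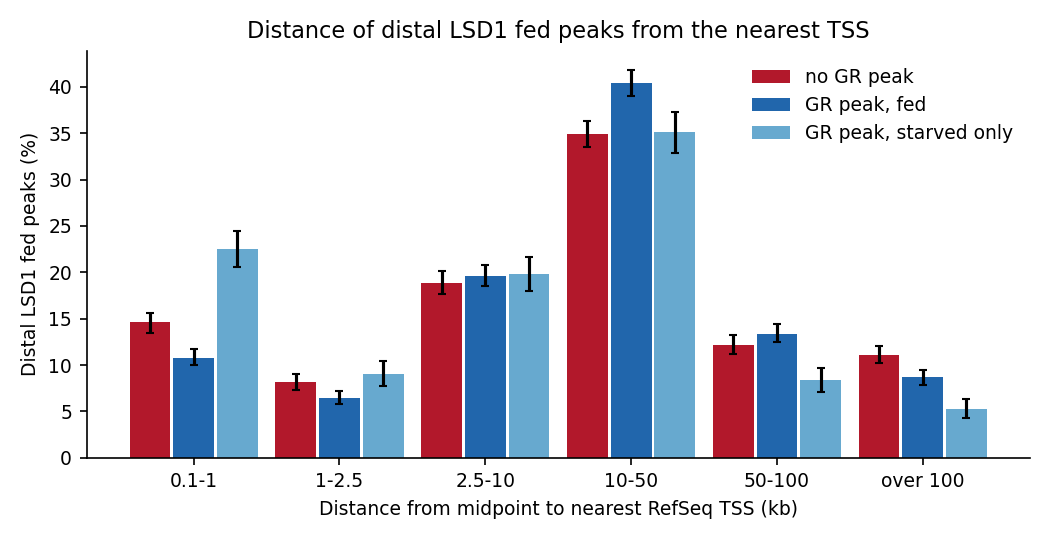
Share of distal LSD1 fed peaks (y axis, %) by distance from the midpoint to the nearest RefSeq TSS (x axis, kb), for 4404 GR-negative sites (red), 4850 sites with a GR fed peak (dark blue) and 1811 with a GR starved peak only (light blue). Error bars are exact 95% CIs. The 10 to 50 kb class was the fullest in each group, with 34.9% of GR-negative sites.

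The sites near start sites differed from the others in base composition. Their 200-bp windows had a median GC content of 68.0% and an observed to expected CpG ratio of 0.832. The 3755 sites farther than 1 kb from a TSS had medians of 49.0% and 0.198. The near sites were thus GC-rich and CpG-rich, as CpG islands are. Examples were the sites 0.341 kb downstream of the TSS of Foxo1, a transcription factor of the fasting response, and 0.561 kb downstream of that of Hdac2, a histone deacetylase of CoREST complexes.

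Many GR-negative sites had GR peaks in their neighbourhood. The median gap to the nearest GR peak of either list was 4.53 kb. A GR peak lay within 100 bp of 310 sites (7.04%), within 1 kb of 1190 (27.0%) and within 10 kb of 2841 (64.5%). For GR-negative promoter peaks these shares were 13.7%, 35.8% and 59.7%, with a median gap of 5.24 kb. At the limit of the rule, 5 sites adjoined a GR peak with no base between, and 41 lay within 10 bp of one. On the other side, 6 distal LSD1 peaks shared 1 base with a GR peak and 48 shared 1 to 10 bases. At the promoter limit, 121 sites had midpoints 101 to 150 bp downstream of a TSS, and 217 promoter peaks without GR lay 51 to 100 bp downstream. The nearest site upstream of a TSS lay at 1003 bp. Another LSD1 fed peak lay within 10 kb of 42.9% of GR-negative sites and of 57.5% of sites with a GR fed peak.

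GR-negative sites were short, with folds close to those of the whole LSD1 fed list. Lengths ran from 55 to 961 bp with a median of 126 bp, and 836 sites had the minimum of 55 bp. The median was 241 bp for sites with a GR fed peak and 196 bp for all LSD1 fed peaks. Fold enrichment over input ran from 1.44 to 21.3 with quartiles of 3.79, 3.96 and 4.27. All LSD1 fed peaks had a median of 4.03 and GR-negative promoter peaks one of 3.91. A q-value of 0.01 or less was reached by 1464 sites (33.2%). The share was 34.5% of GR-negative promoter peaks, 45.5% of all LSD1 fed peaks and 59.6% of distal sites with a GR fed peak. A fold of 5 or more was reached by 284 sites (6.45%) and by 6.70% of all LSD1 fed peaks. These values describe the sites and are not tests, since the same peak calls chose them.

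Few GR-negative sites recurred in starved muscle. The deposited LSD1 starved list held 66332 peaks, against 16616 in the fed list. An LSD1 starved peak overlapped 331 of the GR-negative sites, 7.52% (6.75 to 8.33), whereas 23.1% of all LSD1 fed peaks were overlapped. The share was 24.3% (23.1 to 25.5) at distal sites with a GR fed peak and 20.7% (18.9 to 22.6) at those with a GR starved peak only. The intervals did not overlap. Peak length moved with this result, so that the shares were also taken within classes of length. Among peaks of 201 to 400 bp, 11.3% of GR-negative sites and 23.7% of GR fed sites recurred. Among those over 400 bp, the shares were 25.2% and 43.5%. At the shortest length, 55 bp, they were 3.23% and 9.24%. The GR-negative share was the lower in each of the 5 classes, although in the 56 to 100 bp class, at 8.81% against 11.8%, the intervals overlapped.

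**Figure D2:**
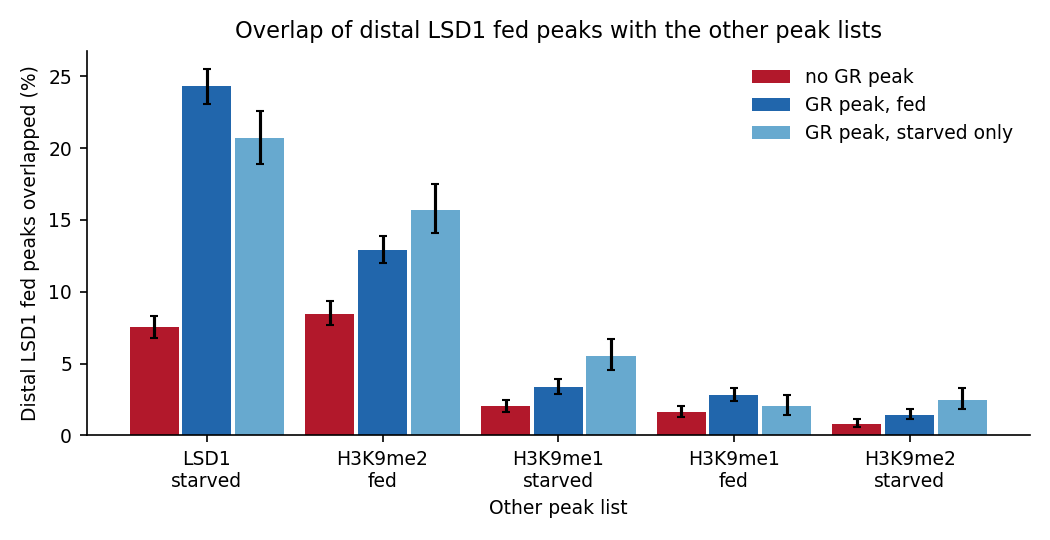
Share of distal LSD1 fed peaks (y axis, %) overlapped by at least 1 bp of a peak of each other list (x axis), in the 3 groups of distal sites, with exact 95% CIs. The LSD1 starved list overlapped 7.52% of GR-negative sites (red), against 24.3% of sites with a GR fed peak (dark blue).

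Where LSD1 recurred, its fold was mostly lower in the starved list. Folds of the 331 sites ran from 1.44 to 21.3 with a median of 4.01 in the fed list, and from 1.41 to 8.80 with a median of 3.50 in the starved list. The starved fold was above the fed fold at 50 of them. Both peaks had a q-value of 0.01 or less at 83. Over all LSD1 fed peaks that recurred, the medians were 4.10 fed and 3.49 starved, so the lower starved fold was not particular to these sites. Folds come from separate peak calls against separate inputs and are set side by side only. The sites were chosen from the fed list, so the comparison is not free of that choice. Among sites with a fed q-value of 0.01 or less and few repeats, the one with the highest starved fold lay 16.9 kb upstream of Trpm6, a magnesium channel gene. Its fold was 4.61 fed and 6.77 starved. The next, 5.65 kb upstream of Gm11634, had 5.33 and 5.34. The site in the Atg7 intron, in a gene of autophagosome formation, had 5.86 fed and 4.12 starved. At Xpa, a nucleotide excision repair gene, an exonic site had 4.65 and 4.63. Starved folds of the other 6 in this order of 10 ran from 4.06 near Rdm1 to 4.75 near Mir5103.

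**Figure D3:**
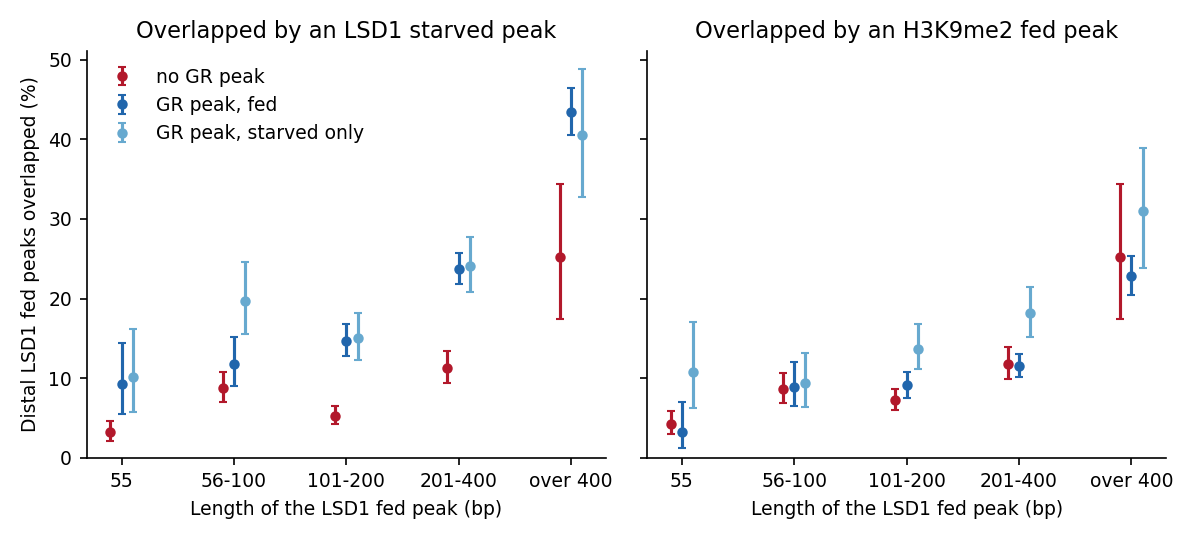
Share of distal LSD1 fed peaks (y axis, %) overlapped by an LSD1 starved peak (left) or an H3K9me2 fed peak (right), by length of the LSD1 fed peak (x axis, bp), with exact 95% CIs, for GR-negative sites (red), sites with a GR fed peak (dark blue) and with a GR starved peak only (light blue). On the left, 25.2% of GR-negative sites over 400 bp recurred against 43.5% with GR fed. On the right, the red and dark blue intervals overlap in every class.

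Peaks of H3K9 methylation, a substrate described for LSD1, were scarce at these sites. An H3K9me2 fed peak lay over 373 sites, 8.47% (7.66 to 9.33), against 16.8% of all LSD1 fed peaks and 12.9% (12.0 to 13.9) of distal sites with a GR fed peak. Within classes of length the last difference was not seen. For 201 to 400 bp the shares were 11.8% and 11.5%, and above 400 bp they were 25.2% and 22.8%, with overlapping intervals in all 5 classes. Against sites with a GR starved peak only, at 15.7% (14.1 to 17.5), the share of GR-negative sites stayed lower. It was 11.8% (9.84 to 13.9) against 18.2% (15.2 to 21.5) for 201 to 400 bp and 7.27% (6.01 to 8.69) against 13.7% (11.1 to 16.8) for 101 to 200 bp. At 55 bp it was 4.31% against 10.8%, while the intervals overlapped at 56 to 100 bp and above 400 bp. An H3K9me2 starved peak lay over 36 sites (0.817%), against 0.921% of all LSD1 fed peaks. The H3K9me2 fed list held 171402 peaks and the starved list 6624. H3K9me1 peaks lay over 72 sites (1.63%) in fed and 89 sites (2.02%) in starved muscle, where all LSD1 fed peaks gave 2.29% and 2.97%. No peak of these 5 lists lay over 3719 sites, or 84.4%. The same share of all LSD1 fed peaks is not given here, so this count is not read as a trait of these sites.

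LSD1 recurrence and H3K9me2 went together at the same sites. Of the 331 recurring sites, 82 (24.8%) had an H3K9me2 fed peak, against 291 of the 4073 others (7.14%). Longer peaks and repeats were also part of the recurring group, and their part in this was not tested. The same split is not given for other LSD1 fed peaks, so it is not shown to be particular to these sites. At sites with a GR fed peak, both overlaps were also more frequent in long peaks. Over 400 bp, 43.5% recurred and 22.8% had H3K9me2 fed, against 9.24% and 3.26% at 55 bp. At Foxo1 the site of 540 bp had an LSD1 fold of 4.32 fed and 3.62 starved and an H3K9me2 fed fold of 3.32. The site near Bhlhe40, a circadian repressor, had 4.14, 3.30 and 3.09 in the same order. The Pdgfc site with the MEF2 motif shown above had 6.35, 3.27 and 3.10. Near start sites, 15.8% of sites recurred, against 5.94% of those farther than 1 kb away. H3K9me2 starved peaks were found at 0 of the 641 sites near a TSS, which allows a share of up to 0.468%. Limits beside a count of 0 are 3 counts of the total, not an end of the exact interval.

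The strongest sites were repeat DNA to a large extent. At least 50% of bases were soft-masked in 621 of 4396 sites with sequence, 14.1%, whereas the share was 2.30% at distal sites with a GR fed peak, 6.96% at those with a GR starved peak only and 5.53% of all LSD1 fed peaks. Among GR-negative sites it was 60.6% (54.6 to 66.3) for the 284 with a fold of 5 or more and 10.9% for the rest. Tandem repeats, taken as windows that matched themselves at 80% or more with a shift of 1 to 60 bp, made up 2.16% (1.75 to 2.64) of GR-negative sites. They made up 0.270% (0.144 to 0.461) of sites with a GR fed peak, but 1.99% (1.40 to 2.74) of those with a GR starved peak only. All LSD1 fed peaks had 0.887%. Among GR-negative sites with a fold of 5 or more the share was 9.86%, and among recurring sites it was 9.88%.

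Peaks of the other lists lay over repeat-rich sites more often than over the others. The pentamer site upstream of Olfr854 had an LSD1 fold of 21.3 fed and 7.24 starved. Over the same bases the H3K9me1 fold was 22.0 fed and 8.98 starved, and the H3K9me2 fed fold was 39.2. The repeat site nearest to AA545190, with an LSD1 fold of 16.4, had 17.7 for H3K9me1 fed and 31.6 for H3K9me2 fed. The third by fold, nearest to Jag1, had 15.4 for LSD1 and no peak of the other 5 lists. At these first 2 sites LSD1 and both histone marks were thus enriched over the same repeat, and the cause was not tested. An H3K9me1 fed peak lay over 5.96% of repeat-rich sites and 0.795% of the others. For H3K9me2 starved the shares were 3.22% and 0.238%. LSD1 starved peaks lay over 14.3% and 6.23%. H3K9me2 fed peaks lay over 13.5% and 7.44%, and H3K9me1 starved peaks over 4.67% and 1.40%.

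Among sites with under 50% of bases soft-masked and a q-value of 0.01 or less, the 39-bp tandem repeat in the Ubr3 intron ranked first. It had a fold of 9.83 and lay 95.6 kb from the nearest GR peak. A site 11.4 kb upstream of Prss16, a thymic protease gene, had 8.74. The site 1.70 kb upstream of Mir5103 had 6.73 fed and 4.75 starved. The Pdgfc intron site, in the gene of a growth factor for mesenchymal cells, lay 175 kb from the nearest GR peak. Folds of the other 6 of the first 10 ran from 5.88 near H2al1j to 6.31 near Tnp1.

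Muscle motifs were more frequent under the sites than beside them, at shares close to those of the whole LSD1 fed list. Motifs were searched on both strands in the central 200 bp of each site and in windows of the same length 5 kb away on each side. The MyoD-type E-box CAGCTG lay in 820 of 4396 sites, 18.7% (17.5 to 19.8), and in 9.20% (8.61 to 9.83) of flanks. A MEF2 motif without mismatch lay in 69 sites, 1.57% (1.22 to 1.98), and in 0.318% (0.212 to 0.460) of flanks. The MEF3 motif TCAGGTTNC lay in 67 sites, 1.52% (1.18 to 1.93), and in 0.739% of flanks. MEF2 and the E-box were found together in 18 sites. All LSD1 fed peaks had 19.7% for the E-box, 1.41% for MEF2 and 1.70% for MEF3. Distal sites with a GR fed peak held more of each, with 28.3% for the E-box, 2.43% (2.01 to 2.90) for MEF2 and 2.61% for MEF3. The MEF2 difference depended on the settings, as given below. Among GR-negative sites with a q-value of 0.01 or less and few repeats, 26.3% held the E-box. With that q-value limit alone, 21.3% of GR-negative sites and 31.6% of sites with a GR fed peak held it.

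**Figure D4:**
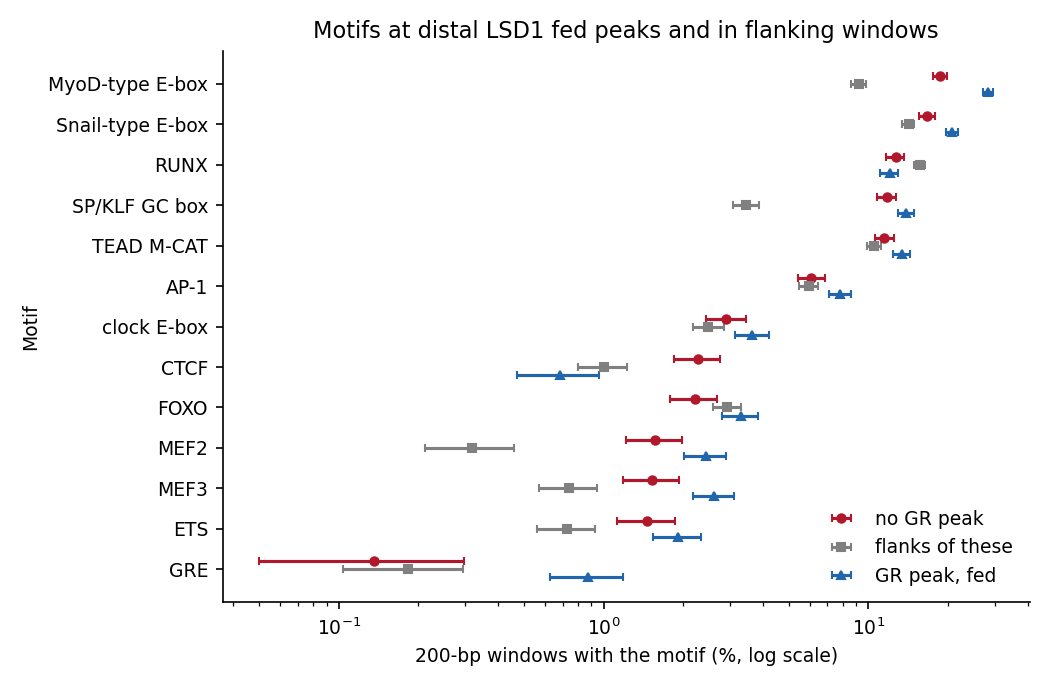
Share of 200-bp windows with each motif (x axis, %, log scale) for GR-negative distal sites (red circles), their flanks (grey squares) and distal sites with a GR fed peak (blue triangles), with exact 95% CIs. MEF2 lay in 1.57% of GR-negative sites and 0.318% of flanks, CTCF in 2.27% against 0.685% of sites with a GR fed peak, and the GRE in 0.136% against 0.871%.

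Sequences like the GRE were rare under GR-negative sites and beside them, with overlapping intervals. At most 1 mismatch to the palindrome was allowed. They lay in 6 sites, 0.136% (0.0501 to 0.297), and in 0.182% (0.104 to 0.295) of flanks. Distal sites with a GR fed peak had 42, or 0.871% (0.629 to 1.18), against 0.0934% of their own flanks. The group with a GR starved peak only had 0 of 1810, which allows up to 0.166%. The 3 inside their peak are given here with 15 bases each on the strand named. The site at chr8:15152725-15152739, plus strand, lay 95.1 kb downstream of Myom2, the gene of an M-band protein of the sarcomere, with a GR peak 0.103 kb away. The site at chr6:48530108-48530122, plus strand, was exonic with 1700026J14Rik as the nearest TSS. The site at chr10:58496246-58496260, plus strand, lay 1.74 kb upstream of Ccdc138.
Myom2, GRE-like: AGAACACGCTGCTCT
1700026J14Rik, GRE-like: AGAACCTTTTGTTCT
Ccdc138, GRE-like: AGAACAATGTGATCT

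The motif of CTCF, an insulator protein, was more frequent at GR-negative sites than at sites with a GR fed peak. Its consensus lay in 100 sites, 2.27% (1.85 to 2.76), in 1.00% (0.804 to 1.23) of flanks and in 0.685% (0.472 to 0.960) of distal sites with a GR fed peak. The flanks of those GR fed sites had 1.34% (1.12 to 1.59), so that the motif was scarcer there than beside them. Sites with a GR starved peak only had 1.38% (0.896 to 2.03), which met the interval of GR-negative sites. All LSD1 fed peaks had 1.36%. Of the 100 sites, 6 recurred in the LSD1 starved list. The GC box GGGCGG, bound by SP and KLF factors, lay in 517 sites (11.8%) and 3.46% of flanks, and 284 of the 517 were within 1 kb of a TSS. It was found in 44.3% of those near sites, in 6.21% of the far ones and in 50.5% of GR-negative promoter peaks. The ETS core CCGGAAG likewise lay in 5.15% of near and 0.826% of far sites, with 0.728% in flanks. MEF2 motifs were at 0 of 641 near sites, which allows up to 0.468%, and at 1.84% of far sites.

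The remaining motifs differed less from the flanks or not at all. The REST motif, allowing 3 mismatches, lay in 3 sites (0.0682%) and no flank. They lay nearest to Pard6a, Aldoa and Tor1b, with folds of 4.35, 3.63 and 3.51. The SNAIL-type E-box CAGGTG lay in 16.6% of sites and 14.2% of flanks. The TEAD motif CATTCC, which also matches the GGAAT run shown above, lay in 11.5% and 10.5%, and the AP-1 motif TGANTCA in 6.10% and 5.95%. RUNX (TGTGGT), at 12.7%, was below its flanks at 15.7%, and FOXO (TGTTTAC) had 2.21% and 2.92% with intervals that met. The estrogen-related receptor element TCAAGGTCA lay in 0.614% and 0.557%. The clock E-box CACGTG, with 2.91% and 2.49%, had overlapping intervals. A match describes letters and does not show binding.

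The sites spread thinly over genes. The nearest TSS belonged to 3329 of 26180 RefSeq genes, 12.7%, and 2605 of these had 1 site, 512 had 2 and 212 had 3 or more. Most of the genes had GR elsewhere. A GR fed peak was nearest to 2008 (60.3%) and a GR starved peak to 2790 (83.8%), where 29.1% and 54.8% of all genes had one. No GR peak was assigned to 445 of them (13.4%). Every distal LSD1 fed peak was GR-negative at 2022 of the 5818 genes with any. The genes spanned a median of 28.6 kb, against 13.5 kb for all genes, and the part of gene length in these counts was not tested.

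Genes with the most sites included large muscle genes. Erdr1 and G530011O06Rik had 15 each, on the near-identical ends of X and Y, so that the assignment of reads is uncertain. The RIKEN gene 4931408D14Rik had 8. Gse1, which encodes a protein of CoREST complexes, had 7, with folds from 3.79 to 4.10. Ttn, the giant spring protein of the sarcomere, was nearest to 7 distal LSD1 peaks, of which 6 were among these sites. All 6 were weak, from 3.78 to 3.97, and those 50.9 and 52.1 kb away lay upstream of the TSS. Mylk4, a myosin light chain kinase gene of muscle, had 6 of 9, from 3.79 to 4.41. Mbnl2, a splicing regulator, had 6 of 12, and Fto, an RNA demethylase, had 6 of 9. Ide, the insulin-degrading enzyme, had 6 of 6, of which 3 were repeat-rich. Eepd1, Gm11266, Lrrfip1 and Maf also had 6 each. In the starved list 3 of the 15 sites of G530011O06Rik and 1 of the 8 of 4931408D14Rik recurred. No site of the other genes named here did, where 7.52% of all GR-negative sites recurred. The counts per gene are too small to be read as a trait of these genes.

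Gene lists of 20 each were set against the 12.7% of all genes with such a site. Most lists were rich in genes with a distal LSD1 fed peak of any kind, and those counts are given too. Of all 5818 genes with any such peak, 3329 had a GR-negative one. They are counts with no test, and the lists were drawn up with results of these data known. Excitation-contraction coupling and calcium handling had the highest count, 15 of 20 genes. Of the same 20 genes, 18 had a distal LSD1 fed peak of any kind. Their median span was 59.7 kb, against 13.5 kb for all genes. Camk2g, a calcium-dependent kinase, had a site of 5.10-fold in an intron. Pvalb, the calcium buffer of fast fibres, had one of 4.99-fold 5.07 kb upstream. Sln, an inhibitor of the calcium pump, had one of 4.63-fold 1.43 kb upstream, its sole distal LSD1 peak. Jph2, a protein of the membrane junction, had one of 4.51-fold with a MEF2 motif. In 6 of the 15 genes every distal LSD1 fed peak was GR-negative. That was 6 of the 18 with any such peak, where the share over all genes with one was 34.8%. In starved muscle 1 of the list's 19 sites recurred, against 7.52% of all GR-negative sites.

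**Figure D5:**
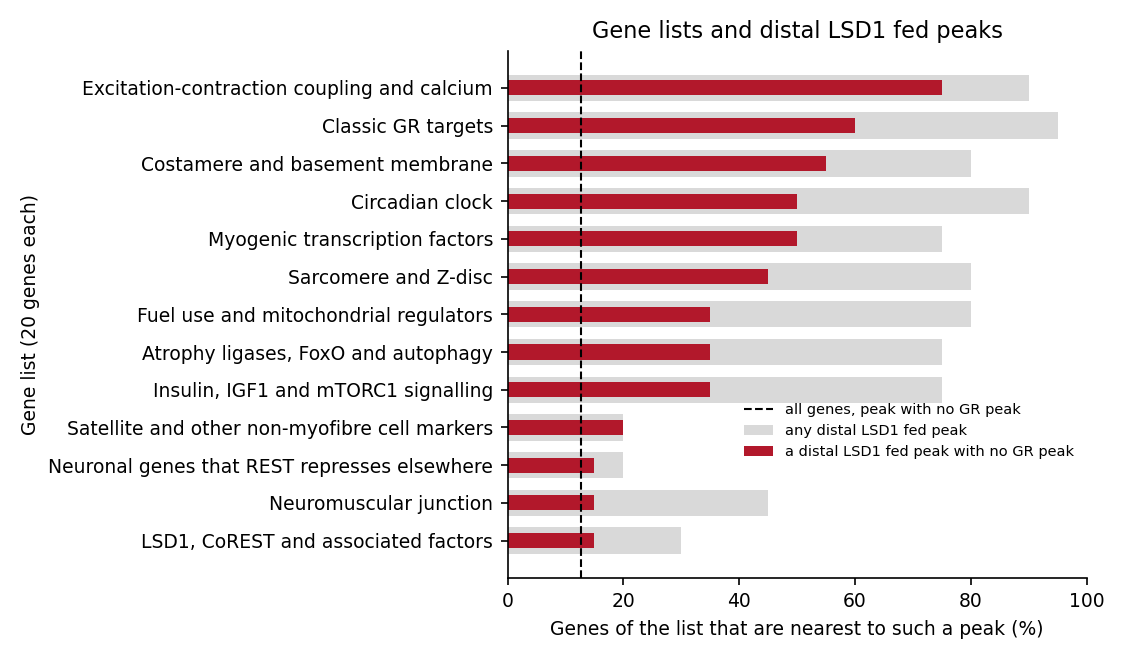
Share of the 20 genes of each list (y axis) that were nearest to a GR-negative distal LSD1 site (red bars, x axis, %) or to any distal LSD1 fed peak (grey bars). The dashed line marks the 12.7% of all genes with a GR-negative site. Excitation-contraction coupling reached 15 of 20 genes and 3 lists stayed at 3.

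Structural and regulatory genes of the myofibre had between 9 and 11 genes per list. A distal LSD1 fed peak of any kind was found for 16 costamere, 16 sarcomere and 15 myogenic genes. The costamere and basement membrane list had 11 of 20 genes, with Ank3, a membrane anchor, at 5.07-fold, Col4a2 at 4.95-fold and Dysf, a membrane repair protein, with 3 sites up to 4.34-fold. The median span of these genes was 156 kb. The sarcomere list had 9 with 17 sites, of which 0 recurred, against 7.52% of all GR-negative sites. Tpm2, a tropomyosin, had 5.11-fold 1.58 kb upstream, at a site with all bases soft-masked. Actn2, a Z-disc crosslinker, had 4.45-fold. Myogenic transcription factors had 10. Myog, a master regulator of muscle differentiation, had an exonic site of 5.13-fold with Myog as the nearest TSS, 7.43 kb away. Tead4 had 5.06-fold and Mef2a had 3 sites up to 4.28-fold.

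Genes known as GR targets also had such sites. The classic GR target list had 12 genes with 17 sites, and 19 of its genes had a distal LSD1 fed peak of any kind. The site near Mt1, a metallothionein, had 5.16-fold with a GR peak 0.0470 kb away. That near Fkbp5, a feedback regulator of GR, had 4.71-fold and lay 6.68 kb from GR. All bases of the Fkbp5 site were soft-masked. Gadd45g, a growth arrest gene, had 3 sites with GR within 0.196 kb of each, and Angptl4, a lipase inhibitor, had 4.37-fold. No gene of this list had GR-negative sites as its only distal LSD1 peaks, against 34.8% of all genes with a distal LSD1 fed peak. The circadian list had 10, out of 18 with any distal LSD1 fed peak. Nr1d1, a nuclear receptor repressor of the clock, had 4.32-fold with GR 1.26 kb away.

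Metabolic and signalling lists had 7 genes each. Of the insulin, atrophy and fuel lists, 15, 15 and 16 genes had any distal LSD1 fed peak. In the insulin and mTORC1 list, Pik3r3 had 4.87-fold, Ddit4, a brake on mTORC1, had 4.62-fold with GR 0.448 kb away, and Grb10, an insulin receptor adaptor, had 3 sites. In the atrophy, FoxO and autophagy list, Foxo1 had 4.32-fold with GR 0.0220 kb away, and Mstn, which encodes myostatin, had an exonic site of 3.98-fold with GR 16.0 kb away. In the fuel list, Ppargc1a, a coactivator of mitochondrial biogenesis, had 4.93-fold 243 kb upstream of the TSS, with GR 51.3 kb away. Tfam had 4.66-fold. All 3 distal LSD1 peaks nearest to Lpl, lipoprotein lipase, were GR-negative and intergenic, 34.4 to 95.5 kb downstream.

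Lists of other cell types and of LSD1's own complex were near the 12.7% of all genes. Markers of satellite and other non-myofibre cells had 4 genes, Pecam1 of endothelium at 5.37-fold, Pdgfra of fibro-adipogenic cells at 4.32-fold, Pax7 of satellite cells at 4.27-fold and Ptprc of leukocytes at 4.21-fold. Pax7 also stood in the myogenic list. Those 4 were the only genes of this list with any distal LSD1 fed peak, and 3 of them had no other kind. The neuromuscular junction, neuronal and LSD1 complex lists had 3 each, out of 9, 4 and 6 genes with any distal LSD1 fed peak. In the last, Hdac2 had 4.05-fold fed and 3.36-fold starved. Nr3c1, which encodes GR, was the gene nearest to 4 sites up to 4.12-fold, 117 to 209 kb from the TSS. Among neuronal genes Bdnf, a neurotrophin also made in muscle, had 4.98-fold fed and 3.40-fold starved, 122 kb from the nearest GR peak. All bases of this site, 61 bp long and 64.6 kb downstream of the TSS, were soft-masked.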

How the data were processed

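ChIP-seq peak lists of fed and 24 h starved mouse muscle were used as the authors deposited them, 8 lists of 1 library each, with groups from the labels. Per the study's methods, the authors mapped single-end reads to mm10 with Bowtie, kept reads with 1 location, removed a human blacklist and called broad peaks with MACS2 against input. For each peak the authors deposited the ratio of signal to input (fold enrichment), and the p-value and the q-value, both as −log10. The deposited score column was not used. A false discovery rate of 0.01 is stated, but the lists reached q-values of up to 0.0998. The LSD1 starved list as deposited holds 66332 peaks, a number other than that in the study's text, and the age in that text differs from the labels. Read depth is unknown.

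Midpoints were placed on 45756 curated RefSeq transcripts of 26180 genes (GRCm38). The 8 GR-negative sites on unplaced contigs had no annotation or sequence read here and count as intergenic. An overlap needed 1 bp. Motifs (17) were searched in 200-bp windows and in flanks 5 kb away. Overlap and motif search were tested on simulated data. Named sites were the 10 highest by fold and the 10 highest by starved fold among recurring sites (both q-value 0.01 or less, under 50% masked), the 3 highest of all, the 3 highest with MEF2, MEF3 or REST motifs, the 10 genes with most sites (with ties) and up to 4 genes per list. Sites, motifs and lists were chosen with earlier results of these data known. Python 3.11.15, pandas 2.3.3 and SciPy 1.17.1 were used.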

Additional observations from a re-analysis of the deposited data

How the results depend on the processing

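Each of 6 results was recomputed under other settings, 56 values in all, of which 36 stayed within 1.5 times the count or within the 95% CI of the value reported. The number of GR-negative sites fell to 1464 at an LSD1 q-value of 0.01 or less and was between 3585 and 5810 otherwise. Sites with an LSD1 starved peak, 7.52%, were 11.7% at that LSD1 threshold, 10.2% with GR peaks of q-value 0.01 or less only, 6.69% where overlaps had to cover 50% of the shorter peak, 6.11% with promoters of 1 kb on each side, 6.23% without repeat-rich sites, 2.45% with starved peaks of q-value 0.01 or less, and 2.61% with the starved list limited to as many peaks as the fed list. Sites with an H3K9me2 fed peak, 8.47%, were 10.8%, 9.93%, 6.65%, 7.44% without repeat-rich sites, 2.86% with marks of q-value 0.01 or less, and 0.908% with the fed list limited to as many peaks as the starved list. The intronic share was 51.7% at the LSD1 threshold and 56.6% with predicted transcripts. MEF2 was at 1.99% at the LSD1 threshold, 1.18% over whole peaks and 10.1% with 1 mismatch, where flanks had 7.87%. The GRE was at 1.39% with 1 more mismatch, not above its flanks. The settings that limit a list to the length of its counterpart were chosen after seeing the data. The causes were not tested, except that fewer peaks give fewer overlaps by construction.

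Under 4 of these settings the groups were also compared again. LSD1 starved peaks lay over fewer GR-negative sites than sites with a GR fed peak each time, from 6.23% against 23.4% without repeat-rich sites to 11.7% against 29.0% at an LSD1 q-value of 0.01 or less. The H3K9me2 fed share was likewise below that of sites with a GR fed peak, and the intervals did not meet in any of the 4. None of these settings held peak length fixed. Within classes of length that difference was not seen, with 11.8% against 11.5% for 201 to 400 bp. CTCF stayed more frequent at GR-negative sites than at sites with a GR fed peak, with 1.78% against 0.522% at the LSD1 threshold. For MEF2 the intervals met at that threshold, with 1.99% (1.34 to 2.85) against 2.33% (1.81 to 2.95). They also met where GR within 500 bp counted as called and without repeat-rich sites. With GR peaks of q-value 0.01 or less only, they did not meet. No paired analysis was possible because each group had 1 library. Depth was unknown, so a site without a peak is not a site without binding.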

Other observations

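GR-negative sites were a larger part of the distal LSD1 fed peaks on X than on the autosomes. They were 44 of 76 on X, 57.9% (95% CI 46.0 to 69.1), and 4330 of 10901 on the autosomes, 39.7% (38.8 to 40.6). Of the 44, sites near Erdr1 and G530011O06Rik at the end of X made up 5 and 11. A further 22 lay on Y, where the same genes had 10 and 4. The cause was not tested.

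The 641 sites just downstream of start sites held the GC box in 44.3%, close to the 50.5% of GR-negative promoter peaks, and 15.8% of them recurred in starved muscle against 18.7% of those promoter peaks.

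At 17 sites, peaks of all 5 other lists lay over the LSD1 fed peak. The same count over all LSD1 fed peaks is not given here.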
